A study of Mus musculus with 12 samples.

Results

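Interferon response genes were followed in 4T1 cells, a mouse mammary carcinoma line, through 44 genes named by symbol: 44 of the 31017 genes in the count tables, all present there. Polyadenylated RNA was sequenced from 12 libraries in 6 groups of 2. In 3D the cells grew in collagen I gels, and in 2D on culture plastic. In each format there were 2 Etv4 knockout groups, clone 2 and clone 1, obtained by nucleofection of Cas9 with Etv4-specific sgRNA and selection, and a control group. Each knockout is 1 clone per line, whereas the control is a pool of clones that received control sgRNA, so the effect of Etv4 and the difference between a single clone and a pool cannot be told apart. All 6 groups went through nucleofection and were kept in DMEM/F12 with serum; no interferon is named in the labels. Gels were digested with collagenase before RNA extraction while 2D cells were lysed directly, and 3D and 2D counts come in separate tables, so culture format, digestion and table cannot be told apart. The gels held 1.2 or 2.4 mg/ml collagen I, and which library had which is not given in the sources used here.

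Type I interferon binds the Ifnar1 and Ifnar2 receptor, whose kinases phosphorylate STAT factors, among them STAT2. Together with IRF9 these bind the interferon-stimulated response element in the promoters of induced genes, while STAT dimers formed after interferon gamma bind the gamma-activated site. The induced proteins sense viral RNA, degrade or sequester it, attach the ubiquitin-like protein ISG15 to other proteins and feed back on the pathway, and in many tumour lines some of them are expressed at a low level without added interferon.

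The promoters of 5 members are shown: those with a response element core that were named by size of change in at least 1 comparison. That naming took called members with a mean of at least 5 CPM, separately for each direction. Where few members were called in a direction, small changes were named too, as for Eif2ak2 at 0.32, -0.21 and -0.27. Oasl2, Sp100, Lgals3bp and Oasl1 were named 5 or 6 times each and had a window without a core. Each window runs 5′ to 3′ from 250 bases before to 50 after the annotated start site (RefSeq, GRCm38.p6), and capitals mark the core, which is GAAA, any 2 bases and GAAA or, on the opposite strand, TTTC, any 2 bases and TTTC. Ddx60 lies at chr8:61927837-61928136 on the + strand, Eif2ak2 at chr17:78882523-78882822 on the - strand, Gbp2 at chr3:142620413-142620712 on the + strand, Ifitm3 at chr7:141010695-141010994 on the - strand and Ifih1 at chr2:62646206-62646505 on the - strand.
Ddx60: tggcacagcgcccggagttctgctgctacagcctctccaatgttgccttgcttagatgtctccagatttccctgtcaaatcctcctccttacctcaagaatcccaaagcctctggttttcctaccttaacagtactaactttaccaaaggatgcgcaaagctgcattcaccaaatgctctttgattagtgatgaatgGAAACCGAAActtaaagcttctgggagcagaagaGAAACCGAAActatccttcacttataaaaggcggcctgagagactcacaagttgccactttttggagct
Eif2ak2: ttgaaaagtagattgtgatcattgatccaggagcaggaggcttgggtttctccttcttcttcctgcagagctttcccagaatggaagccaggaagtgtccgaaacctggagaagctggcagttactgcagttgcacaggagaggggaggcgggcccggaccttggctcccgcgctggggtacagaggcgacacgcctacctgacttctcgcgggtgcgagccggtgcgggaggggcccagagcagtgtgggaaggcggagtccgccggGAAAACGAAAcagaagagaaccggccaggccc
Gbp2: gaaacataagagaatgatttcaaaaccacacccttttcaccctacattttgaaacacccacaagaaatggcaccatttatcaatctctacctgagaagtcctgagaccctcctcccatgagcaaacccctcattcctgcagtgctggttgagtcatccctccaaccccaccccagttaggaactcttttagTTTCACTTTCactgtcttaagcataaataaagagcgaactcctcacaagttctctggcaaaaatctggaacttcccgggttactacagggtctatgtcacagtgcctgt
Ifitm3: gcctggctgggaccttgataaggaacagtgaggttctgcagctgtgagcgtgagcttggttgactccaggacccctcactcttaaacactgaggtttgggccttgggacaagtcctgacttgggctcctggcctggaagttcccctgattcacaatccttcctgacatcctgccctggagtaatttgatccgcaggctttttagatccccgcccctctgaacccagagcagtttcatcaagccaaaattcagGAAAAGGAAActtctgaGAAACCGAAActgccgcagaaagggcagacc
Ifih1: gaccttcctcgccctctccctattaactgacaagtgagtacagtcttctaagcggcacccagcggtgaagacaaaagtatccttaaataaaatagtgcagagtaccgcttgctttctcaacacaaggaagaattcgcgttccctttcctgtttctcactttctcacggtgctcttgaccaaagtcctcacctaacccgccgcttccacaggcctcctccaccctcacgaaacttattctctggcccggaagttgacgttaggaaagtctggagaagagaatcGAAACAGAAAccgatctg

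The response element core was more common in the members' windows than in windows of all genes. It was found on either strand in 17 of the 37 members with a RefSeq window, 45.9%, against 3.99% of 27025 genes and 3.44% of 32851 windows. The gamma-activated site TTCNNNGAA, which is its own reverse complement, was in 8 of the 37, 21.6%, against 9.55% of all genes. CCGGAA or TTCCGG, the centre of sites bound by ETS factors of the PEA3 group to which ETV4 belongs, was in 4 of the 37 (Stat2, Ifih1, Ifit2 and Rsad2), 10.8%, against 16.7% of all genes. The members were chosen as interferon response genes, so the first share describes the list. Of 16 tested members with a core, 10 were higher in clone 2 than in control cells in gels, and of 20 with a window and no core, 14 were, against 11.9% of all genes. Among these, Ifit3b and Rsad2 with a core and Cmpk2 without passed the filter on low counts only through clone 2 in gels. Cores can overlap each other: Isg15 held 3 cores that start 6 bases apart, and the gamma-activated sites of Bst2 and Ifitm3 start 6 bases before a core and overlap it. Oas2, Dhx58, Usp18, Parp9, Parp14, Rtp4 and Zbp1 had no window in the table.

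**Figure D1:**
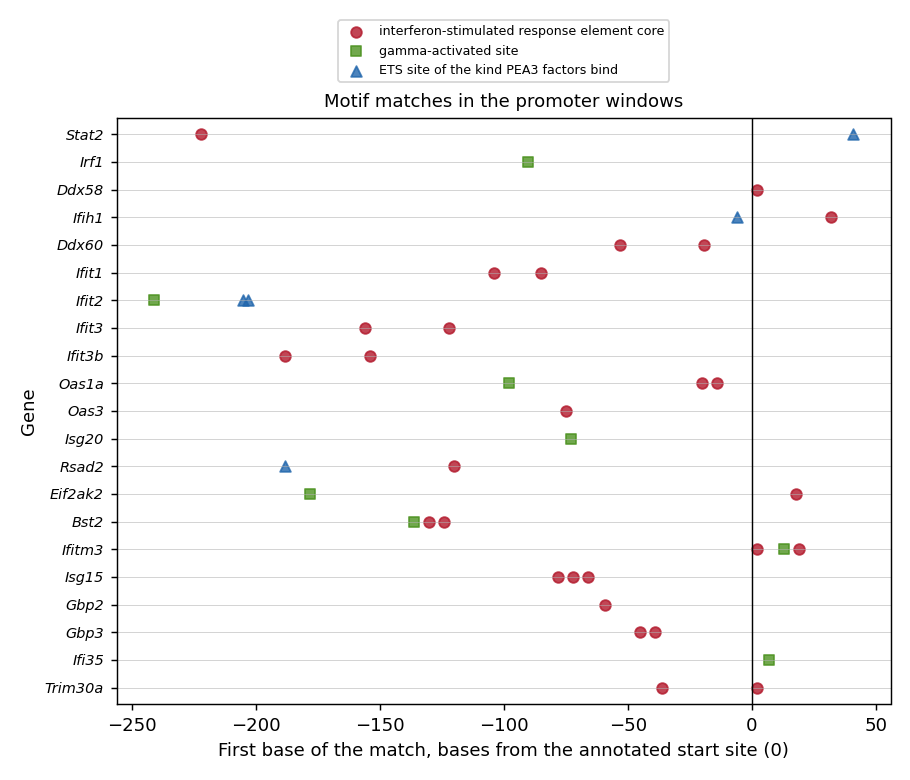
Positions of the 3 motifs in the promoter windows of the members that hold at least 1 match; the x axis gives the first base of the match in bases from the annotated start site, drawn at 0, and each row is a gene. Circles are response element cores, squares gamma-activated sites and triangles ETS sites. The 2 cores of Ddx60 start 53 and 19 bases before the start site, and that of Eif2ak2 starts 18 bases after it.

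Libraries held 26525130 to 33210413 counts in 3D and 12277023 to 18702650 in 2D, and the members together took 0.0465% to 0.112% of the counts in 3D and 0.0394% to 0.0583% in 2D. Etv4 (chromosome 11, 101769742 to 101785371, - strand) had 86.6 and 91.5 CPM in clone 2, 69.9 and 69.1 CPM in clone 1, and 94.7 and 99.4 CPM in control cells, in gels. On plastic it had 49.3 and 46.0 CPM in clone 2, 49.8 and 49.2 CPM in clone 1, and 78.1 and 76.0 CPM in control cells. Etv4 RNA was lower in both clones on plastic, with log2 changes of -0.69 ± 0.07 in clone 2 and -0.64 ± 0.07 in clone 1, and in clone 1 in gels, at -0.48 ± 0.06. Clone 2 in gels was at -0.12 ± 0.06 (adjusted p = 0.116). With chromosomes centred on their medians, clone 1 was at -0.00 (adjusted p = 0.975) in gels and -0.25 (adjusted p = 0.00759) on plastic. Clone 2 was then at -0.16 (adjusted p = 0.0504) in gels and -0.54 (adjusted p = 1.30e-06) on plastic. Counts over the whole gene do not show whether the reading frame was broken, so the clone names below follow the labels. Of the mammary epithelial markers 7 of 8 were expressed above the filter, with Krt5 at 0 in every library. In gels 1 of the 7 was higher and 4 were lower in clone 2 than in control, against 11.9% and 17.4% of all genes. In clone 1, 2 were higher and 5 lower, against 22.0% and 23.0% (45.1% in all). Epcam had 394 and 413 CPM in clone 2, 175 and 185 CPM in clone 1, and 292 and 304 CPM in control cells, in gels. Krt14 had 7.59 and 7.84 CPM in clone 2, 16.0 and 14.3 CPM in clone 1, and 34.8 and 36.4 CPM in control cells, in gels. Krt19 and Krt7 were the 2 higher in clone 1, at 0.39 ± 0.06 and 0.24 ± 0.05. The part of these shifts in the members' changes was not tested. Of the leukocyte markers 2 of 9 passed the filter (Cd68 and Csf1r), with Adgre1 and Itgam at 0 in every library and Ptprc at 0.405 CPM or less. Only 1 of 7 fibroblast markers (Pdgfra) and 1 of 6 endothelial markers (Egfl7) passed it.

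In collagen gels the members ran in opposite directions in the 2 clones. Of the 26 members with a mean of at least 5 CPM over all libraries, 17 were higher and 1 lower in clone 2 than in control cells, where 14.2% of all genes at that level were higher and 22.3% lower. In clone 1, 1 was higher and 19 lower, against 27.9% and 26.0% of genes. Between the clones, 23 were higher and 1 lower in clone 2 than in clone 1, against 28.9% and 36.4%. A member was called where edgeR's quasi-likelihood test gave an adjusted p under 0.05 (Benjamini-Hochberg, 13763 genes), and every adjusted p below comes from that test. Of 42 members that passed the filter on low counts, 29 were higher and 1 lower in clone 2 than in control (all genes 11.9% and 17.4%, 29.2% in either direction). In clone 1, 1 was higher and 28 lower (all genes 22.0% and 23.0%, 45.1% in all). Clone 2 exceeded clone 1 for 36 members and was below it for 1 (all genes 26.4% and 28.5%, 54.9% in all). Median log2 changes over the 42 were 0.55 in clone 2, -0.84 in clone 1 and 1.33 between the clones, where the median of all genes tested was at or near 0 in each. Without 1 library of the control or clone 2 groups in 3D, 16 to 18 members were higher in clone 2 in place of 29: 16 without control replicate 1, 18 without control replicate 2, 16 without clone 2 replicate 1 and 16 without clone 2 replicate 2. In bulk RNA, fewer expressing cells and less RNA per cell cannot be told apart. The clone 2 and clone 1 comparisons share their control libraries. Among the 29, Ifit3b, Rsad2 and Cmpk2 passed the filter only through clone 2 in gels, so their calls carry no weight. The same holds for these genes in every other count that sets clone 2 in gels against another group, and in the clone 2 interaction. DESeq2's Wald test gave 20 higher in clone 2 and 24 lower in clone 1, and chromosome centring gave 27 and 25.

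**Figure D2:**
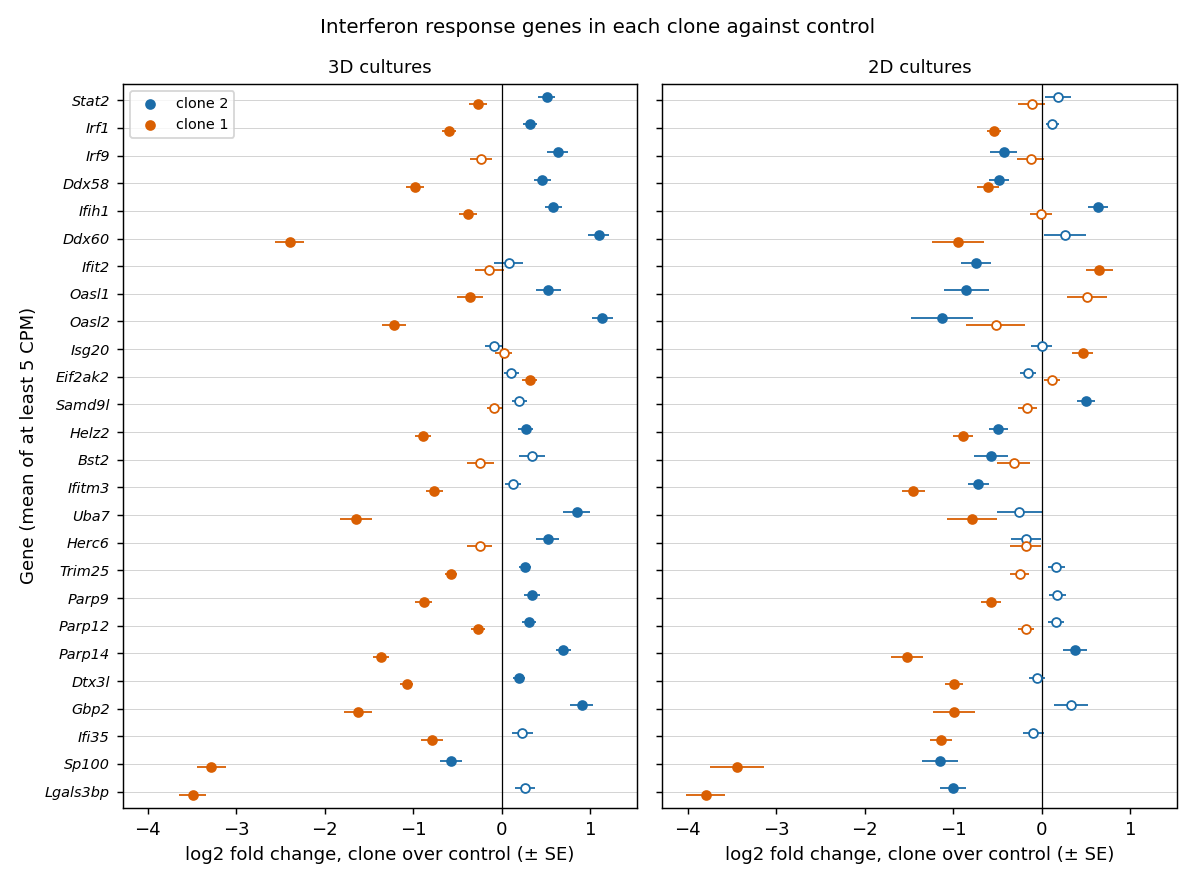
Log2 fold change of each clone over control (x axis, with SE bars) for the 26 members with a mean of at least 5 CPM, in 3D on the left and 2D on the right. Filled points passed an adjusted p of 0.05 and open points did not. In 3D most clone 2 points lie right of 0 and most clone 1 points left of it, with Sp100 at -0.57 ± 0.13 in clone 2 and Eif2ak2 at 0.32 ± 0.09 in clone 1 on the other side.

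On plastic fewer members differed past the test, and more of them were lower than higher in each clone. The 2D libraries also held fewer counts, 12277023 to 18702650 against 26525130 to 33210413 in 3D. The part of depth in the number of calls was not tested. In clone 2, 3 of the 26 were higher and 10 lower than in control, against 24.6% and 17.4% of genes at that level. In clone 1 the counts were 2 higher and 13 lower, against 25.6% and 23.4%. Clone 2 exceeded clone 1 for 15 members and was below it for 4, against 29.1% and 23.1%. Over the 42 members, 4 were higher and 13 lower in clone 2 (all genes 18.9% and 15.0%, 33.9% in all). The counts were 3 and 17 in clone 1 (all genes 19.8% and 20.0%, 39.8% in all), and 18 and 5 between the clones (all genes 23.2% and 18.4%, 41.6% in all). Median log2 changes were -0.21 in clone 2, -0.70 in clone 1 and 0.32 between the clones. With genes that had no count in a group set at their bound or left out, they were -0.26, -0.59 and 0.40. Without control replicate 1 in 2D, 7 members were lower in clone 2, and without control replicate 2, 2 were higher. Without clone 1 replicate 1 in 2D, 3 were lower in clone 2 than in clone 1. The 2D libraries fitted alone gave 2 higher and 8 lower in clone 2 against control.

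More members were higher than lower in gels against plastic in each kind of cell. That was so for all genes tested as well, but not for genes with a mean of at least 5 CPM. Of the 26, 21 were higher and 2 lower in 3D in clone 2, 12 and 4 in clone 1, and 18 and 4 in control cells. At that level 37.4% of genes were higher and 47.8% lower in clone 2, 36.6% and 45.3% in clone 1, and 38.1% and 45.4% in control. Over the 42 members the counts were 36 and 2 in clone 2 (all genes 42.5% and 37.0%, 79.5% in all), 19 and 4 in clone 1 (all genes 39.8% and 35.3%, 75.1% in all), and 27 and 5 in control (all genes 41.7% and 35.6%, 77.2% in all). In clone 1 the 19 of 42 higher were near the 39.8% of all genes, and the 4 lower were below the 35.3%. Median log2 changes were 1.72 in clone 2, 0.74 in clone 1 and 1.14 in control, or 1.72, 0.58 and 1.06 with bounds. Over all genes they were 0.11, 0.08 and 0.10. Other measures moved with format as well. Between 17135 and 17595 genes had a count in each 3D library and between 13459 and 13875 in each 2D library. The 12 mitochondrial genes tested had median log2 changes of 3D over 2D of 4.30 in clone 2, 3.58 in clone 1 and 4.6 in control. The fibroblast marker Pdgfra changed by 2.40 ± 0.14 in clone 2, 1.59 ± 0.13 in clone 1 and 2.54 ± 0.14 in control, and the leukocyte marker Cd68 by 1.91 ± 0.26, 1.86 ± 0.25 and 1.06 ± 0.23 in the same order. The endothelial marker Egfl7 was lower in gels. It had 3.11 and 3.47 CPM in clone 2, 4.02 and 5.38 in clone 1 and 3.68 and 4.01 in control there. Its plastic libraries held 9.71 and 7.68 CPM in clone 2, 8.95 and 10.0 in clone 1 and 14.5 and 12.3 in control. The fibroblast markers Pdgfrb and Lum were at 0 in every library. The part of these measures in the members' changes was not tested. The interaction, which is the clone's difference from control in 3D minus that in 2D, was positive for 18 members and negative for 0 in clone 2 (all genes 7.43% and 14.8%, 22.2% in all), with a median of 0.84 against -0.06 for all genes. At an unadjusted p under 0.05, 1 was negative in edgeR's test. DESeq2's Wald test gave 0, and with chromosomes centred there was 1. In clone 1 it was positive for 1 and negative for 5 (all genes 3.57% and 3.44%, 7.02% in all), with a median of -0.07. The negative count in clone 1 was 2 without clone 1 replicate 1 in 2D, 2 without either control library in 3D, 3 without clone 1 replicate 1 in 3D and 2 without its replicate 2.

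**Figure D3:**
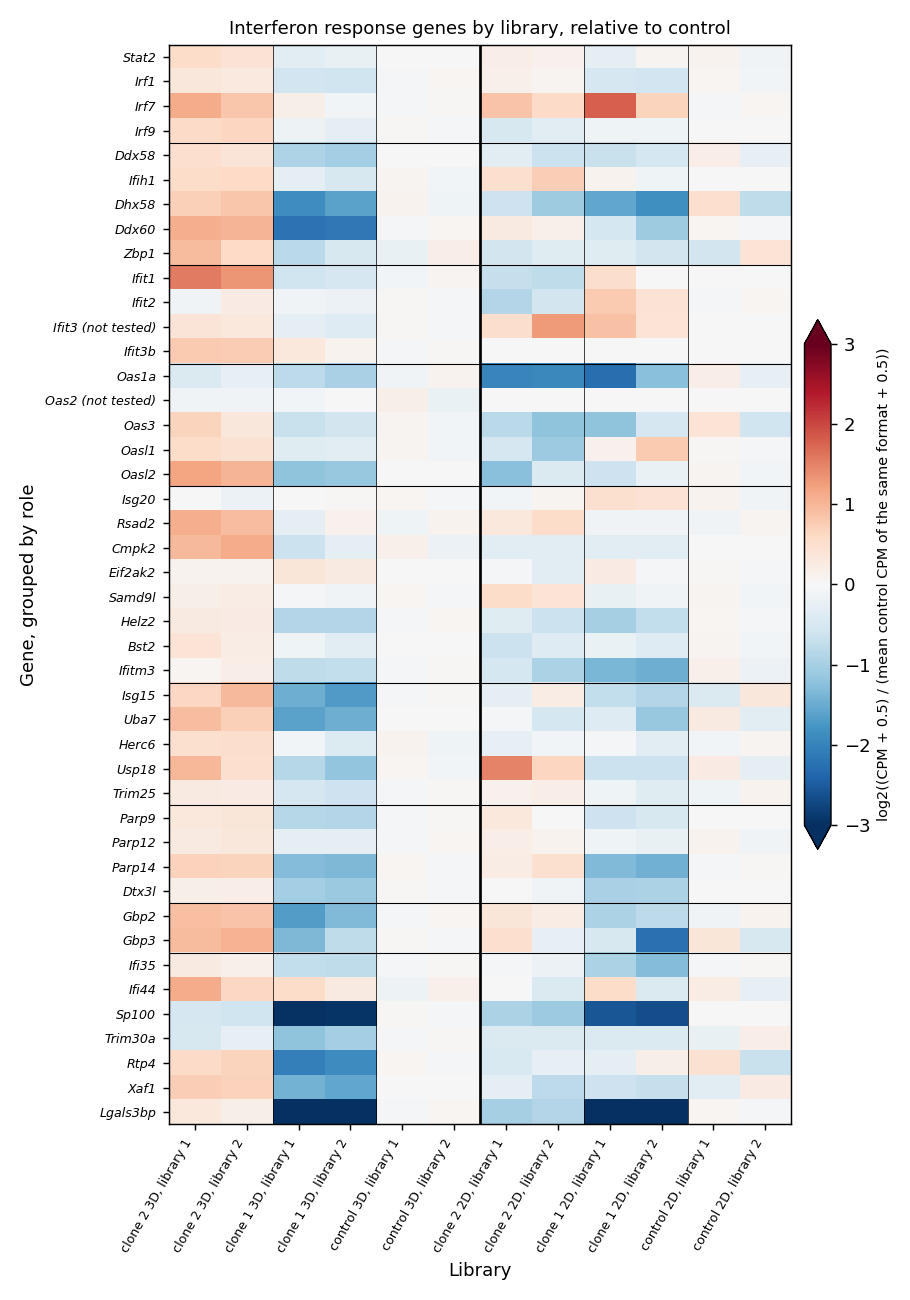
Each row is a member and each column a library; colour gives log2 of CPM plus 0.5 over the control mean of the same format plus 0.5, with horizontal lines between the roles. In 3D the clone 2 columns are mostly red (above control) and the clone 1 columns mostly blue (below control), and on plastic both colours are mixed in clone 2.

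Of 4 transcription factor genes of the pathway, 4 were higher in clone 2 than in control cells in gels, and 2 were lower in clone 1. For this and each role below, 11.9% of all genes were higher and 17.4% lower in clone 2 in gels, and 22.0% and 23.0% in clone 1. Stat2 (chromosome 10, 128270559 to 128292849, + strand), which encodes a subunit of the factor that binds the response element, had 33.5 and 31.1 CPM in clone 2, 18.1 and 19.6 CPM in clone 1, and 22.7 and 22.8 CPM in control cells, in gels. It was higher in clone 2 by 0.50 ± 0.10 (adjusted p = 3.30e-04) and lower in clone 1, at -0.27 ± 0.10 (adjusted p = 0.0368). With chromosomes centred the clone 1 value was -0.14 (adjusted p = 0.322). Irf9, the DNA-binding partner of STAT2, had 15.9 and 16.8 CPM in clone 2, 9.49 and 8.50 CPM in clone 1, and 10.9 and 10.2 CPM in control cells, in gels. Clone 2 lay above the other libraries, with a change of 0.63 ± 0.12 (adjusted p = 1.77e-04), and clone 1 was at -0.23 ± 0.13 (adjusted p = 0.138). Irf7, the factor that amplifies type I interferon transcription, had 6.29 and 5.14 CPM in clone 2, 3.08 and 2.48 CPM in clone 1, and 2.55 and 2.76 CPM in control cells, in gels. Its clone 2 libraries were again the highest (1.11 ± 0.24, adjusted p = 9.99e-04), while clone 1 and control overlapped. On plastic Irf7 had 0.705 and 0.498 CPM in clone 2, 1.82 and 0.562 CPM in clone 1, and 0.140 and 0.202 CPM in control cells. The change in clone 1 there was 2.80 ± 0.69 (adjusted p = 0.00184), from few counts.

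Irf1, a factor induced mainly through the gamma-activated site, was lower in gels than on plastic in all 3 kinds of cell. It lies on chromosome 11, 53770014 to 53778374, + strand. In gels it had 38.7 and 37.4 CPM in clone 2, 20.4 and 20.1 CPM in clone 1, and 29.4 and 31.8 CPM in control cells. In 2D it had 79.1 and 74.7 CPM in clone 2, 50.2 and 47.1 CPM in clone 1, and 74.4 and 67.4 CPM in control cells. Every 3D library was below every 2D library, and the log2 changes of 3D over 2D were -1.02 ± 0.07 (adjusted p = 1.63e-12) in clone 2, -1.26 ± 0.08 (adjusted p = 2.26e-13) in clone 1 and -1.21 ± 0.08 (adjusted p = 9.90e-14) in control cells. In gels clone 2 exceeded control by 0.31 ± 0.08 (adjusted p = 0.00259) and clone 1 was below it at -0.59 ± 0.08 (adjusted p = 1.21e-06). The median of all chromosome 11 genes in clone 1 was -0.43 in 3D and -0.38 in 2D. With chromosomes centred, Irf1 in clone 1 was at -0.12 (adjusted p = 0.281) in 3D and -0.15 (adjusted p = 0.155) in 2D.

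Of 5 sensor genes, 4 were higher in clone 2 in gels and 4 were lower in clone 1, and clone 2 exceeded clone 1 for all 5. Ddx60 encodes a helicase reported to assist RIG-I-like receptors in human cells. Ddx60 (chromosome 8, 61928087 to 62038244, + strand) had 26.6 and 25.2 CPM in clone 2, 2.24 and 2.35 CPM in clone 1, and 11.6 and 12.7 CPM in control cells, in gels. All 3 groups were apart, with log2 changes of 1.09 ± 0.12 (adjusted p = 9.35e-08) in clone 2, -2.40 ± 0.16 (adjusted p = 4.08e-12) in clone 1 and 3.49 ± 0.15 (adjusted p = 2.67e-16) of clone 2 over clone 1. The plastic libraries held 3.42 and 3.13 CPM in clone 2, 1.75 and 1.04 CPM in clone 1, and 2.87 and 2.63 CPM in control cells. Clone 2 was at 0.26 ± 0.23 (adjusted p = 0.430) against control there. Ddx60 was higher in gels than on plastic by 2.97 ± 0.16 in clone 2, 0.69 ± 0.27 in clone 1 and 2.14 ± 0.18 in control cells. The interaction was 0.83 ± 0.27 (adjusted p = 0.0257) in clone 2 and -1.45 ± 0.36 (adjusted p = 0.0120) in clone 1. Without clone 1 replicate 1 in 2D the clone 1 interaction was -1.01 (adjusted p = 0.237). The 2 response element cores printed above lie in this gene's promoter.

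Ifih1, which encodes the sensor MDA5, was the 1 sensor gene that was higher in clone 2 on plastic as well. There it had 25.9 and 30.9 CPM in clone 2, 19.5 and 16.6 CPM in clone 1, and 18.0 and 18.4 CPM in control cells. The change in clone 2 was 0.63 ± 0.12 (adjusted p = 1.23e-04). In gels it had 39.2 and 40.6 CPM in clone 2, 22.0 and 19.1 CPM in clone 1, and 28.1 and 25.2 CPM in control cells. Log2 changes were 0.58 ± 0.10 in clone 2 and -0.38 ± 0.10 in clone 1, both past the test. Ddx58, encoding RIG-I, was lower in both clones on plastic (-0.48 ± 0.12 and -0.61 ± 0.12), and in gels it was higher in clone 2 (0.46 ± 0.10) and lower in clone 1 (-0.98 ± 0.10). Dhx58, encoding LGP2, had 7.03 and 7.62 CPM in clone 2, 0.759 and 0.999 CPM in clone 1, and 4.45 and 3.73 CPM in control cells, in gels. Log2 changes were 0.84 ± 0.23 (adjusted p = 0.00738) in clone 2 and -2.20 ± 0.31 (adjusted p = 2.20e-06) in clone 1. It lies on chromosome 11, and its centred value in clone 1 was -1.72 (adjusted p = 8.65e-05). Zbp1, a sensor of Z-form nucleic acid, had at most 1.43 CPM and differed between clone 2 and clone 1 in gels by 2.93 ± 0.65 (adjusted p = 4.25e-04).

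Of 3 IFIT genes tested, which encode proteins that bind viral RNA, 2 were higher in clone 2 in gels and 1 was lower in clone 1. Of those 2, Ifit3b passed the filter through clone 2 in gels alone and gives no support, and DESeq2's Wald test gave 1 higher in clone 2 and 0 lower in clone 1. Ifit1, which binds RNA with an incompletely methylated cap, had 12 and 10.3 CPM in clone 2, 2.32 and 2.51 CPM in clone 1, and 3.54 and 4.01 CPM in control cells, in gels. It was higher in clone 2 by 1.56 ± 0.18 (adjusted p = 1.56e-07) and lower in clone 1 at -0.64 ± 0.21 (adjusted p = 0.0156), with 7.13% of its 50-base windows shared with Ifit1bl1 or Ifit1bl2. Ifit2 (chromosome 19, 34550694 to 34576419, + strand) had 6.15 and 8.03 CPM in clone 2, 6.23 and 5.93 CPM in clone 1, and 6.86 and 6.56 CPM in control cells, in gels. Clone 2 overlapped both other groups there and clone 1 lay below control, but neither clone differed from control past the test. Values on plastic were 7.16 and 9.10 CPM in clone 2, 23.8 and 18.4 CPM in clone 1, and 13.0 and 14.0 CPM in control cells. Clone 1 was highest, at 0.65 ± 0.16 (adjusted p = 0.00146), and clone 2 lowest, at -0.74 ± 0.17 (adjusted p = 0.00138). Clone 2 against clone 1 was at -1.39 ± 0.16 (adjusted p = 1.69e-07) there. Ifit2 was lower in gels than on plastic in clone 1 (-1.80 ± 0.16, adjusted p = 7.62e-11) and control cells (-1.01 ± 0.16, adjusted p = 4.07e-06), and in clone 2 it was at -0.19 ± 0.17 (adjusted p = 0.326). Without clone 1 replicate 1 in 2D the clone 1 change on plastic was 0.45 (adjusted p = 0.0567).
Ifit3 and Ifit3b share 51.24% and 44.95% of their windows, mostly with each other, so their counts are uncertain. Ifit3 did not pass the filter. Ifit3b had 25 counts in clone 2 and 3 in control over both 3D libraries, and these counts are given without a test.

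OAS enzymes make short oligoadenylates that switch on RNase L. Of 4 members tested, 2 were higher in clone 2 in gels and 3 were lower in clone 1, while on plastic 4 were lower in clone 2, against 15.0% of all genes. Oasl2 (chromosome 5, 114896936 to 114912234, + strand), an OAS-like gene, had 36.2 and 32.2 CPM in clone 2, 6.49 and 6.86 CPM in clone 1, and 15.8 and 15.4 CPM in control cells, in gels. On plastic it had 0.597 and 1.42 CPM in clone 2, 1.19 and 1.77 CPM in clone 1, and 2.24 and 1.96 CPM in control cells. All gel libraries exceeded all plastic libraries, by 5.15 ± 0.21 (adjusted p = 3.37e-18) in clone 2, 2.19 ± 0.24 (adjusted p = 8.08e-09) in clone 1 and 2.89 ± 0.20 (adjusted p = 3.91e-13) in control cells. In gels it was higher in clone 2 (1.14 ± 0.12, adjusted p = 4.64e-08) and lower in clone 1 (-1.22 ± 0.14, adjusted p = 7.27e-08). On plastic clone 2 was instead below control at -1.12 ± 0.35 (adjusted p = 0.0138), and the interaction of clone 2 was 2.26 ± 0.37 (adjusted p = 7.44e-05). Without clone 2 replicate 1 in 2D the change on plastic was -0.56 (adjusted p = 0.293) and without control replicate 1 in 2D it was -1.03 (adjusted p = 0.0696), and the 2D libraries fitted alone gave an adjusted p of 0.143.

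Oasl1, which in mouse restrains Irf7 translation, had 20.1 and 18.7 CPM in clone 2, 10.4 and 10.6 CPM in clone 1, and 14.3 and 12.8 CPM in control cells, in gels. In 2D it had 3.04 and 1.85 CPM in clone 2, 4.96 and 8.12 CPM in clone 1, and 4.68 and 4.38 CPM in control cells. Clone 2 was the highest group in gels (0.52 ± 0.14, adjusted p = 0.00531) and the lowest on plastic (-0.85 ± 0.26, adjusted p = 0.0122), and its interaction was 1.37 ± 0.29 (adjusted p = 0.00131). Against clone 1 on plastic, clone 2 was at -1.36 ± 0.25 (adjusted p = 6.27e-05). In clone 2 it was higher in gels than on plastic by 2.95 ± 0.20 (adjusted p = 1.98e-13). The clone 1 interaction, -0.87 ± 0.27 (adjusted p = 0.0475), did not hold without either 2D control library, without clone 1 replicate 2 in 2D or without any 3D library, where its adjusted p was up to 0.341. DESeq2's Wald test gave it an adjusted p of 0.0592. The change of clone 2 on plastic was -0.58 (adjusted p = 0.130) without clone 2 replicate 2 in 2D and -0.80 (adjusted p = 0.0501) without control replicate 1 in 2D.
Oas1a, of whose windows 57.57% are shared with Oas1g, was lower on plastic in clone 2 (-2.68 ± 0.44) and clone 1 (-2.24 ± 0.43). Oas3 had 3 counts in clone 2 and 19 in control over both 2D libraries, and 3.92 and 3.03 CPM in clone 2, 1.25 and 1.39 CPM in clone 1, and 2.44 and 2.11 CPM in control cells, in gels. Oas2 had 2 counts in clone 2, 3 in clone 1 and 4 in control over both 3D libraries and was not tested.

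Of 8 other antiviral effectors, 3 were higher in clone 2 in gels and 1 was higher and 2 were lower in clone 1. In clone 1 that is 12.5% and 25%, against 22.0% and 23.0% of all genes, so the lower share was near the background. Of the 3, Rsad2 and Cmpk2 passed the filter only through clone 2 in gels and give no support. DESeq2's Wald test gave 1 higher in clone 2. Eif2ak2 (chromosome 17, 78852564 to 78882573, - strand) encodes PKR, the kinase that stops translation when it binds double-stranded RNA. In gels it had 41.9 and 42.2 CPM in clone 2, 50.2 and 46.9 CPM in clone 1, and 39.5 and 38.5 CPM in control cells. Clone 1 was the highest, at 0.32 ± 0.09 (adjusted p = 0.00371) over control. Clone 2 against clone 1 was at -0.21 ± 0.09 (adjusted p = 0.0416) in 3D and -0.27 ± 0.09 (adjusted p = 0.0206) in 2D. The median of chromosome 17 genes in clone 2 against clone 1 was -0.39 in 3D and -0.30 in 2D. With chromosomes centred these Eif2ak2 values were 0.17 (adjusted p = 0.0998) and 0.12 (adjusted p = 0.358). Against control, clone 1 in 3D was then at 0.08 (adjusted p = 0.492). Its call in clone 1 against control in 3D did not hold without control replicate 2 in 3D (0.29, adjusted p = 0.0580) or clone 1 replicate 1 in 3D (0.25, adjusted p = 0.0813). The 3D difference between the clones did not hold without any one of 5 libraries of 3D (either control, clone 1 replicate 1 and either clone 2), with adjusted p up to 0.303. The 2D difference did not hold without clone 1 replicate 1 (-0.12, adjusted p = 0.391) or clone 2 replicate 2 (-0.14, adjusted p = 0.290) in 2D.

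Isg20, an RNA exonuclease, had 16.3 and 18.5 CPM in clone 2, 24.3 and 23.4 CPM in clone 1, and 18.7 and 16.0 CPM in control cells, on plastic. It was higher in clone 1 than in control there (0.46 ± 0.12, adjusted p = 0.00245) and lower in clone 2 than in clone 1 (-0.46 ± 0.12, adjusted p = 0.00199). In gels its changes were -0.09 ± 0.10 (adjusted p = 0.520) in clone 2 and 0.02 ± 0.10 (adjusted p = 0.900) in clone 1. Ifitm3, which blocks virus entry at endosomal membranes, had 25.7 and 19.1 CPM in clone 2, 14.0 and 13.1 CPM in clone 1, and 41.7 and 32.9 CPM in control cells, on plastic. The control libraries were the highest there, with -0.72 ± 0.12 (adjusted p = 3.11e-05) in clone 2 and -1.45 ± 0.13 (adjusted p = 1.78e-09) in clone 1. In gels it had 55.7 and 61.1 CPM in clone 2, 31.2 and 31.8 CPM in clone 1, and 52.3 and 54.8 CPM in control cells. Changes were 0.12 ± 0.09 (adjusted p = 0.352) in clone 2 and -0.76 ± 0.10 (adjusted p = 4.55e-07) in clone 1. The interaction of clone 1 was 0.69 ± 0.16 (adjusted p = 0.00930), and it was 0.64 (adjusted p = 0.0644) without control replicate 1 in 3D.

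Samd9l, an antiviral restriction factor, had 33.4 and 30.0 CPM in clone 2, 19.3 and 21 CPM in clone 1, and 23.8 and 21.2 CPM in control cells, on plastic. It was higher in clone 2 there, at 0.50 ± 0.10 (adjusted p = 3.46e-04). In gels its clone 2 change was 0.19 ± 0.08 (adjusted p = 0.0876). Helz2, a helicase, was lower in clone 1 in both formats (-0.89 ± 0.09 in 3D and -0.89 ± 0.12 in 2D), and in clone 2 it was higher in 3D (0.27 ± 0.08) and lower in 2D (-0.49 ± 0.11). Bst2, the tetherin that holds budding virus at the cell surface, had an interaction of 0.91 ± 0.24 (adjusted p = 0.00674) in clone 2, where its change on plastic was -0.57 ± 0.19. Rsad2 (viperin) and its neighbour Cmpk2, a mitochondrial nucleotide kinase, were under 0.3 CPM in every plastic library. In gels Rsad2 had 0.909 and 0.766 CPM in clone 2, 0.0380 and 0.226 CPM in clone 1, and 0.109 and 0.215 CPM in control cells. Cmpk2 had 1.15 and 1.31 CPM in clone 2, 0.0380 and 0.193 CPM in clone 1, and 0.438 and 0.251 CPM in control cells. Rsad2 passed the filter through clone 2 in gels alone. Cmpk2 reached the cutoff in both clone 2 gel libraries and in 1 control gel library, too few without clone 2. The levels of both genes are given without a test. Cmpk2 had 69 counts in clone 2 in 3D and none in 2D, at least 13.3-fold higher with a floor of 3 counts over the group.

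Of 5 genes of ISG15 and its conjugation, 5 were higher in clone 2 in gels and 4 were lower in clone 1. Isg15 itself had 8.32 and 10.8 CPM in clone 2, 1.59 and 1.29 CPM in clone 1, and 5.11 and 5.45 CPM in control cells, in gels. It was higher in clone 2 by 0.86 ± 0.20 (adjusted p = 0.00134) and lower in clone 1 at -1.88 ± 0.25 (adjusted p = 7.03e-07). Uba7 (chromosome 9, 107975505 to 107984060, + strand), the enzyme that activates ISG15, had 23.6 and 20.2 CPM in clone 2, 3.65 and 4.12 CPM in clone 1, and 12.2 and 12.2 CPM in control cells, in gels. No group overlapped another, with 0.85 ± 0.15 (adjusted p = 1.01e-04) in clone 2 and -1.64 ± 0.18 (adjusted p = 4.24e-08) in clone 1. Usp18, which removes ISG15 and inhibits the receptor, had 2.94 and 1.97 CPM in clone 2, 0.456 and 0.258 CPM in clone 1, and 1.31 and 1.15 CPM in control cells, in gels. Log2 changes were 1.00 ± 0.37 in clone 2 and -1.79 ± 0.49 in clone 1. The plastic libraries held no count in clone 1 and 8 in control, so it was at least 2.45-fold lower, with a floor of 3 counts over the group. Herc6, the main ISG15 ligase in mouse, was at 0.52 ± 0.13 (adjusted p = 0.00400) in clone 2 and -0.25 ± 0.14 (adjusted p = 0.151) in clone 1. Of Herc6 exon bases, 13.66% overlap Gm45193 on the same strand. With chromosomes centred, clone 2 was at 0.31 (adjusted p = 0.103) for Herc6 and 0.79 (adjusted p = 0.126) for Usp18.

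Trim25, a ubiquitin ligase for RIG-I, was higher in gels than on plastic in the 3 kinds of cell. Trim25 (chromosome 11, 88999376 to 89020293, + strand) had 139 and 135 CPM in clone 2, 80.0 and 74.0 CPM in clone 1, and 112 and 117 CPM in control cells, in gels. Values on plastic were 22.1 and 23.1 CPM in clone 2, 18.3 and 15.5 CPM in clone 1, and 18.5 and 21.8 CPM in control cells. Its changes of 3D over 2D were 2.60 ± 0.08 in clone 2, 2.18 ± 0.09 in clone 1 and 2.51 ± 0.08 in control, and every gel library lay above every plastic one. Its interactions, 0.10 ± 0.12 (adjusted p = 0.629) in clone 2 and -0.33 ± 0.13 (adjusted p = 0.121) in clone 1, did not pass the test. Against control in gels it was higher in clone 2 (0.26 ± 0.06) and lower in clone 1 (-0.57 ± 0.07). With chromosomes centred the clone 1 change, on chromosome 11, was -0.09 (adjusted p = 0.315).

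PARP and DTX3L proteins attach ADP-ribose or ubiquitin, and PARP9 works as a dimer with DTX3L. Of these 4 members, 4 were higher in clone 2 in gels and 4 were lower in clone 1. Parp14 (chromosome 16, 35832874 to 35871544, - strand), a mono-ADP-ribosyltransferase, had 59.7 and 58.9 CPM in clone 2, 14.5 and 14.0 CPM in clone 1, and 38.4 and 34.9 CPM in control cells, in gels. On plastic it had 10.4 and 12.5 CPM in clone 2, 3.21 and 2.89 CPM in clone 1, and 8.60 and 8.97 CPM in control cells. Clone 1 was the lowest in both formats, at -1.37 ± 0.09 (adjusted p = 6.28e-12) in 3D and -1.52 ± 0.18 (adjusted p = 2.00e-07) in 2D. Clone 2 was the highest in both, at 0.69 ± 0.08 (adjusted p = 3.52e-07) and 0.37 ± 0.13 (adjusted p = 0.0339). The 2D call in clone 2 did not hold without either 2D control library, without clone 2 replicate 2 in 2D (adjusted p = 0.255), without clone 1 replicate 2 in 3D, without clone 2 replicate 1 in 3D, in the 2D libraries alone (adjusted p = 0.241) or in DESeq2's Wald test (adjusted p = 0.0649). Dtx3l changed in gels by 0.19 ± 0.07 in clone 2 and -1.08 ± 0.07 in clone 1. Parp9 changed by 0.34 ± 0.09 in clone 2 and -0.88 ± 0.09 in clone 1, and Parp12 by 0.31 ± 0.08 in clone 2 and -0.27 ± 0.08 in clone 1. Parp9 and Dtx3l overlap on opposite strands over 9.40% and 8.0% of their exon bases. Parp14, Parp9, Dtx3l and Rtp4 lie on chromosome 16, whose median in clone 1 was -0.32 in 3D and -0.35 in 2D. Centred values in clone 1 in 3D were -1.03 (adjusted p = 1.87e-09) for Parp14, -0.55 (adjusted p = 1.91e-05) for Parp9 and -0.75 (adjusted p = 5.23e-09) for Dtx3l. Parp12 was no longer past the test in either clone, at 0.10 (adjusted p = 0.404) in clone 2 and -0.12 (adjusted p = 0.271) in clone 1.

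Both guanylate-binding GTPases, which attack membranes of intracellular pathogens, were higher in clone 2 and lower in clone 1 in gels. By DESeq2's Wald test 1 of the 2 passed in each clone. Gbp2 (chromosome 3, 142620602 to 142638008, + strand) had 18.1 and 17.5 CPM in clone 2, 2.66 and 3.48 CPM in clone 1, and 9.12 and 9.96 CPM in control cells, in gels. The groups did not overlap, at 0.90 ± 0.13 (adjusted p = 6.74e-06) in clone 2 and -1.62 ± 0.16 (adjusted p = 6.72e-09) in clone 1, and clone 2 exceeded clone 1 by 2.53 ± 0.15 (adjusted p = 2.36e-13). In 2D it had 6.29 and 5.62 CPM in clone 2, 2.24 and 2.57 CPM in clone 1, and 4.40 and 5.13 CPM in control cells. Clone 2 exceeded clone 1 there by 1.32 ± 0.23 (adjusted p = 3.49e-05). Gbp3 was at 1.18 ± 0.35 (adjusted p = 0.0123) in clone 2 and -1.46 ± 0.46 (adjusted p = 0.0114) in clone 1 in gels, and formats did not differ past the test.

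**Figure D4:**
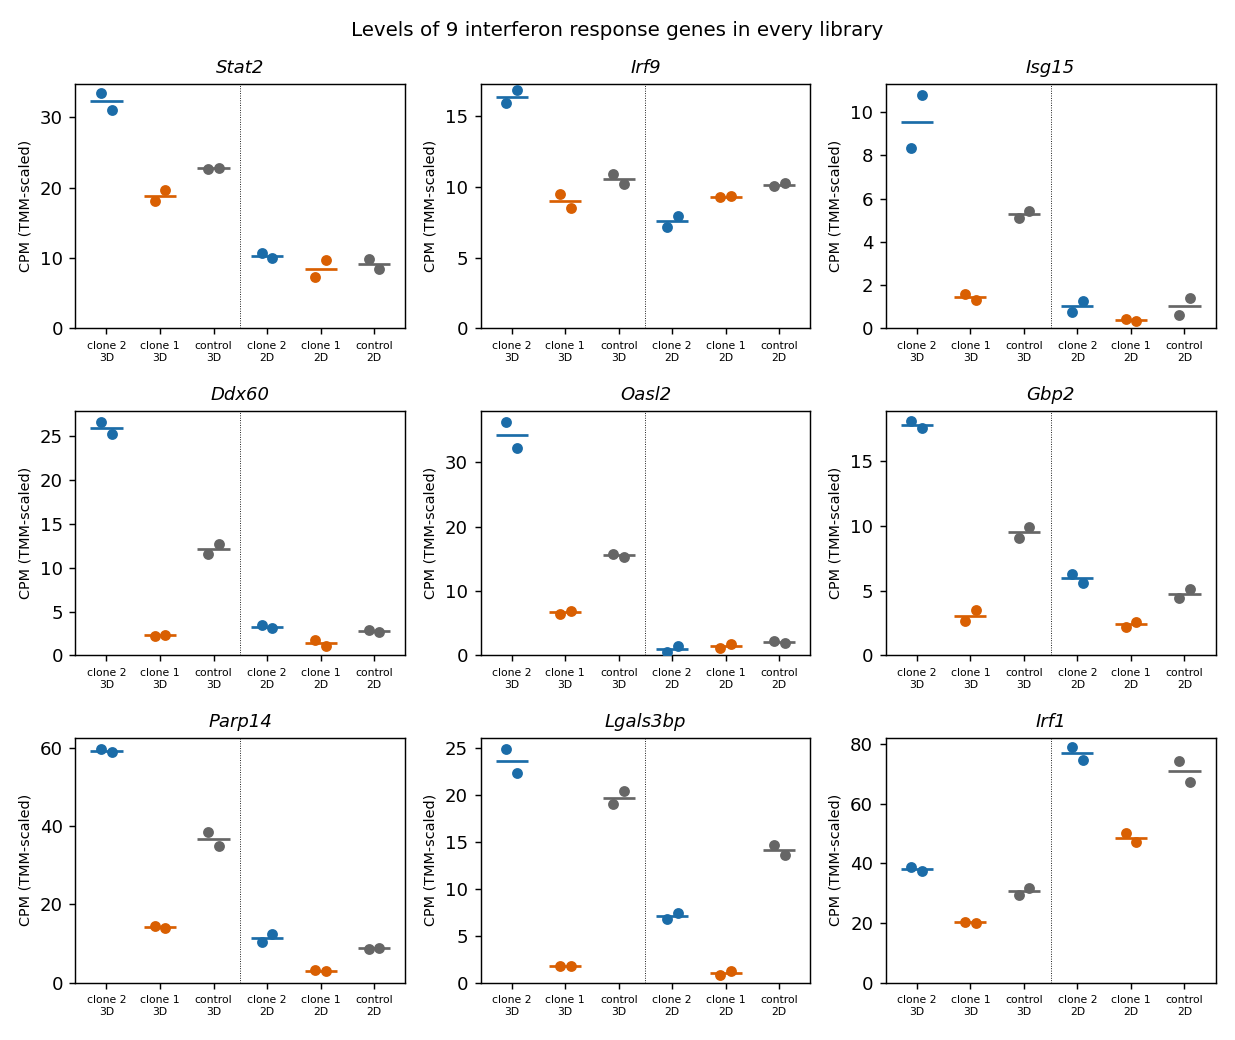
CPM of 9 members in every library (points) with the group mean (line), for 3D on the left of the dotted line and 2D on the right, each panel with its own axis from 0. Ddx60, Oasl2, Gbp2 and Parp14 are highest in clone 2 and lowest in clone 1 in 3D, and Irf1 is lower in 3D than in 2D in each kind of cell.

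Of 7 further induced genes, 3 were higher and 1 was lower in clone 2 in gels and 6 were lower in clone 1. With DESeq2's Wald test 1 was higher and 1 lower in clone 2. Lgals3bp (chromosome 11, 118392751 to 118402092, - strand), a secreted glycoprotein that binds galectins, had 24.8 and 22.3 CPM in clone 2, 1.75 and 1.74 CPM in clone 1, and 19.0 and 20.4 CPM in control cells, in gels. The plastic libraries held 6.78 and 7.40 CPM in clone 2, 0.839 and 1.21 CPM in clone 1, and 14.6 and 13.6 CPM in control cells. Clone 1 was below every other library of its format, at -3.49 ± 0.15 (adjusted p = 6.92e-16) in 3D and -3.80 ± 0.22 (adjusted p = 6.45e-13) in 2D. Clone 2 was at 0.26 ± 0.11 (adjusted p = 0.0759) in 3D and -1.0 ± 0.15 (adjusted p = 8.71e-06) in 2D. With chromosomes centred clone 1 was at -3.02 (adjusted p = 1.80e-14) in 3D. Clone 2 exceeded clone 1 by 3.75 ± 0.15 in 3D and 2.80 ± 0.25 in 2D.

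Sp100 (chromosome 1, 85649988 to 85709998, + strand), a component of PML nuclear bodies, had 11.2 and 10.5 CPM in clone 2, 1.63 and 1.68 CPM in clone 1, and 16.5 and 15.8 CPM in control cells, in gels. Values on plastic were 2.71 and 2.42 CPM in clone 2, 0.559 and 0.482 CPM in clone 1, and 5.73 and 5.73 CPM in control cells. It was lower in both clones and both formats, at -0.57 ± 0.13 (adjusted p = 9.73e-04) and -1.15 ± 0.21 (adjusted p = 1.05e-04) in clone 2 and -3.28 ± 0.16 (adjusted p = 1.20e-14) and -3.44 ± 0.31 (adjusted p = 1.64e-09) in clone 1. Clone 2 exceeded clone 1 by 2.71 ± 0.17 in 3D and 2.29 ± 0.35 in 2D. The chromosome 1 median in clone 2 was -0.53 in 3D and -0.29 in 2D, and the centred Sp100 values were -0.03 (adjusted p = 0.896) and -0.81 (adjusted p = 0.00473).

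Ifi35, whose product forms a complex with NMI, had 14.8 and 13.5 CPM in clone 2, 7.10 and 6.89 CPM in clone 1, and 11.8 and 12.4 CPM in control cells, in gels. Values in 2D were 27.3 and 24.6 CPM in clone 2, 14.2 and 10.9 CPM in clone 1, and 27.1 and 28.5 CPM in control cells. Its format changes were -0.88 ± 0.12 (adjusted p = 1.33e-07) in clone 2, -0.85 ± 0.14 (adjusted p = 5.68e-06) in clone 1 and -1.20 ± 0.12 (adjusted p = 6.90e-10) in control cells. Gm11626 covers 16.79% of its exon bases on the other strand. Clone 1 was lower than control in both formats (-0.79 ± 0.13 in 3D and -1.14 ± 0.13 in 2D), and at -0.31 (adjusted p = 0.0623) in 3D with chromosomes centred. Xaf1, an antagonist of the apoptosis inhibitor XIAP, had 9.09 and 8.72 CPM in clone 2, 1.63 and 1.45 CPM in clone 1, and 5.29 and 5.12 CPM in control cells, in gels. Rtp4, a chaperone of membrane receptors, had 6.50 and 7.04 CPM in clone 2, 0.646 and 0.773 CPM in clone 1, and 4.38 and 4.05 CPM in control cells, in gels. Xaf1 was higher in clone 2 (0.77 ± 0.18) and lower in clone 1 (-1.76 ± 0.23), where its centred value was -1.28 (adjusted p = 6.96e-05). Rtp4 was higher in clone 2 (0.68 ± 0.22) and lower in clone 1 (-2.55 ± 0.31), where its centred value was -2.22 (adjusted p = 2.28e-06). Of Rtp4 exon bases, 13.89% overlap Gm45338 on the same strand. Trim30a, which in mouse damps Toll-like receptor signalling, was lower in clone 1 in gels (-2.72 ± 0.65) and at -0.63 ± 0.50 (adjusted p = 0.379) in clone 2. Ifi44 stayed under 1 CPM in every library and was higher in clone 2 than control in gels (2.05 ± 0.70, adjusted p = 0.0291).

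**Figure D5:**
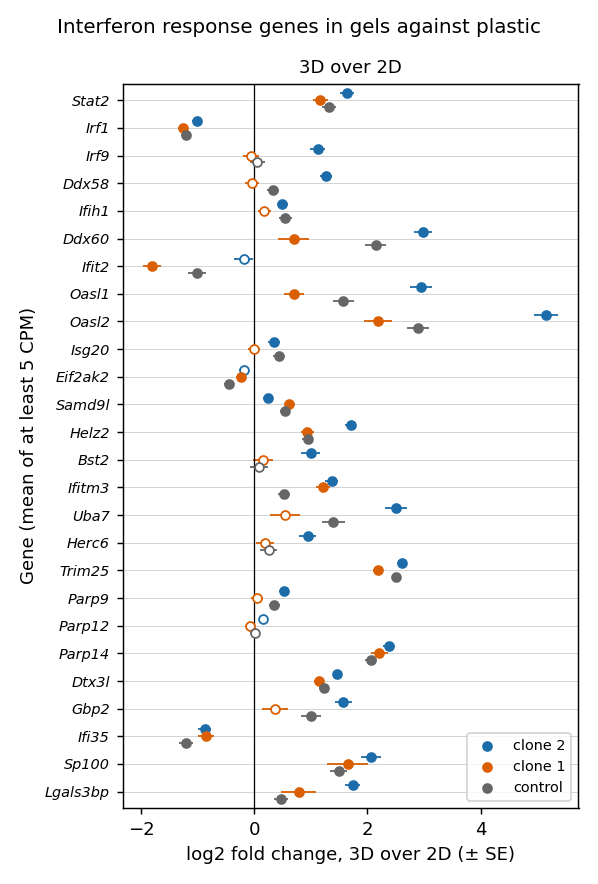
Log2 fold change of 3D over 2D (x axis, with SE bars) for the 26 members with a mean of at least 5 CPM, in clone 2, clone 1 and control cells; filled points passed an adjusted p of 0.05. Oasl2 lies farthest right, at 5.15 ± 0.21 in clone 2, and Irf1 and Ifi35 lie left of 0 in the 3 kinds of cell.

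Per kilobase of exon, so that genes can be compared, Ifitm3 was the most abundant member in each of the 6 groups. Its mean was 86.1 CPM per kb in clone 2, 46.5 in clone 1 and 79.0 in control cells in gels, and 33.1 in clone 2, 20.0 in clone 1 and 55.0 in control on plastic. Trim25 followed in gels, with 23.8 in clone 2, 13.4 in clone 1 and 19.9 in control. In gels Isg15 had 12.6 CPM per kb in clone 2, 1.91 in clone 1 and 6.98 in control. Irf1 had 9.57 CPM per kb in clone 2, 5.10 in clone 1 and 7.70 in control, the highest of the 4 transcription factor genes there.

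No interferon gene of the list passed the filter: Ifnb1 had 1 count over all 12 libraries, in clone 2 in gels, Ifna4 had 1, Ifna1, Ifna2, Ifnl2 and Ifnl3 had 0, and Ifng had 2. Ifne had 19, with 6 and 4 in the clone 2 gel libraries, and Ifnk had 17, at most 4 in a library. Of 6 genes tested of this list of ligands and receptors, 1 was higher in clone 2 than in control in gels, and 4 were lower in clone 1. In clone 2 in gels 11.9% of all genes were higher and 17.4% lower, and in clone 1 22.0% and 23.0%, which is the background for each list that follows. Ifngr2, a chain of the interferon gamma receptor, was at -0.74 ± 0.11 (adjusted p = 5.13e-06) in clone 1 on plastic. In clone 1 in gels, Ifngr1 was at -0.38 ± 0.11 (adjusted p = 0.00426), Ifnar1 at -0.25 ± 0.07 (adjusted p = 0.00623) and Ifnlr1 at -0.36 ± 0.13 (adjusted p = 0.0204). Among 17 JAK-STAT genes and inhibitors, 3 were higher and 2 lower in clone 2 in gels, and 3 higher and 8 lower in clone 1. As shares that is 17.6% and 11.8% in clone 2, 29.4% in either direction against 29.2% of all genes, and 17.6% and 47.1% in clone 1. DESeq2's Wald test gave 4 higher and 0 lower in clone 2. Jak2, a kinase of the gamma receptor, had 221 and 220 CPM in clone 2, 96.0 and 91.8 CPM in clone 1, and 168 and 166 CPM in control cells, in gels. Changes were 0.40 ± 0.05 (adjusted p = 7.72e-07) in clone 2 and -0.83 ± 0.05 (adjusted p = 1.33e-12) in clone 1. The inhibitor Socs3 was at -0.87 ± 0.08 (adjusted p = 1.27e-09) and the phosphatase Ptpn6 at 1.06 ± 0.12 (adjusted p = 2.85e-08) in clone 1 in gels. The phosphatase Ptpn11 was at 0.60 ± 0.06 (adjusted p = 1.20e-08) in clone 2 on plastic.

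On plastic, where 18.9% of all genes were higher and 15.0% lower in clone 2 and 19.8% and 20.0% in clone 1, 1 of those 6 was higher and 1 lower in clone 2, and 2 were lower in clone 1. Of the JAK-STAT list 5 were higher and 3 lower in clone 2 and 3 and 6 in clone 1. Of 20 genes of upstream nucleic acid sensing, 4 were higher and 2 lower in clone 2 in gels, and 4 and 4 in clone 1. The clone 1 shares, 20% each, were near those of all genes. On plastic the counts were 5 and 2 in clone 2 and 4 and 4 in clone 1. Tlr3, the receptor for double-stranded RNA, was at -0.79 ± 0.08 (adjusted p = 2.35e-08) in clone 1 in gels, where the adaptor Traf3 was at 0.42 ± 0.05 (adjusted p = 1.74e-07) and Rnaseh2b, a subunit of RNase H2, at 0.59 ± 0.09 (adjusted p = 1.04e-05). Ikbke, a kinase that activates IRF3, was at -0.85 ± 0.15 (adjusted p = 7.62e-05) in clone 2 on plastic. Of 9 further IRF family and related genes, 1 was higher and 2 lower in clone 2 in gels and 1 and 4 in clone 1, and on plastic 1 and 2 in clone 2 and 2 and 3 in clone 1. Of these, 0 were higher and 1 lower in clone 2 in gels with DESeq2's Wald test. Irf8 was at -0.97 ± 0.13 (adjusted p = 6.84e-07) and Irf2bp2 at -0.35 ± 0.05 (adjusted p = 2.08e-06) in clone 1 in gels. Irf3 was at 0.41 ± 0.09 (adjusted p = 9.20e-04) in clone 2 on plastic.

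Of 43 interferon-induced genes outside the members that were tested, 13 (30.2%) were higher and 5 (11.6%) lower in clone 2 in gels. In clone 1, 0 were higher and 29 lower. Clone 2 exceeded clone 1 for 30 and was below it for 4 (all genes 26.4% and 28.5%, 54.9% in all). These counts are without chromosome centring. Ifi47, Irgm1, Irgm2, Igtp, Slfn2, Slfn8, Slfn9 and Ccl5 lie on chromosome 11, whose median in clone 1 in gels was -0.43. Their median log2 changes were 0.26 in clone 2, -0.69 in clone 1 and 0.99 between the clones, where the median over all genes was at or near 0. Gbp9 had 30.8 and 34.6 CPM in clone 2, 5.43 and 5.38 CPM in clone 1, and 11.3 and 10.5 CPM in control cells, in gels. Its change in clone 2 was 1.58 ± 0.13 (adjusted p = 4.25e-10). Gbp7 had 10.8 and 11.1 CPM in clone 2, 0.570 and 0.741 CPM in clone 1, and 7.99 and 8.06 CPM in control cells, and was lower in clone 1 at -3.59 ± 0.28 (adjusted p = 5.83e-11). Of Gbp7 exon bases, 11.35% overlap Gm43802 on the same strand. Mov10, an RNA helicase, was at -0.69 ± 0.07 (adjusted p = 4.31e-09) in clone 1, and Ifi203, a DNA-binding protein of the p200 family, was lower in clone 2 at -0.72 ± 0.06 (adjusted p = 1.14e-09). On plastic 5 were higher and 5 lower in clone 2 (all genes 18.9% and 15.0%). In clone 1 there, 2 were higher and 18 lower (all genes 19.8% and 20.0%). The 0 higher in clone 1 in gels is edgeR's count, and it was 0 also at an unadjusted p under 0.05 and in DESeq2's Wald test.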

How the data were processed

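RNA was prepared with a stranded poly(A) kit (TruSeq Stranded mRNA), per the labels' protocols. The deposited values are raw gene counts made by the authors, whole numbers in 1 table per culture format with 31017 genes each. The submitters' processing notes name mm10, FastQC 0.11.9, STAR 2.7.9a, featureCounts and R 4.1.1 without their roles, and also Cell Ranger 3.0.0. The strand setting of the counting is not given in the sources used here, so the larger overlaps of members are named beside their values. Smaller overlaps, and those of most genes outside the members, are not given.

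Both tables were joined by gene symbol and fitted together with edgeR 4.0.16 (R 4.3.3, limma 3.58.1): filterByExpr (13763 genes kept), TMM scaling, 6 group means and quasi-likelihood F tests, two-sided, with Benjamini-Hochberg adjustment. The design left 6 residual degrees of freedom, and the common biological coefficient of variation was 4.51%. The quasi-likelihood fit also moderates each gene's spread across genes, so its p-values rest on more than these 6. CPM are TMM-scaled. Log2 changes are given ± SE, the change over the square root of F. The filter needed about 0.442 CPM in 2 libraries, and Ifit3b and Rsad2 reached it in 1 group. Cmpk2 reached it in clone 2 in gels and in 1 further library, so it passed only through clone 2. The floor of 3 counts covers counting error only. For the centred values, log2 CPM were set against each gene's mean over the libraries, and the chromosome's median of these was removed in each library. The mitochondrial genes and chromosome Y, with 12 and 1 genes tested, were left as they were. Alternatives were another scaling (DESeq2 1.42.0 size factors), DESeq2's Wald test, a looser filter, each format alone, a replicate block, removal of Gm26917 and Gm42418, chromosome centring and leaving out each library. The code was tested on simulated data. Nothing in the labels says that replicates came from separate cultures, so p-values measure the spread between these libraries, which may be technical.

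All 44 members may be named. Beyond them, up to 4 genes of each list were named by smallest p, and members with at least 5 CPM by size of change, up to 4 per direction for clones, 3 for formats and 2 for interactions. The members and lists were chosen with earlier results of these data known. Overlaps come from GENCODE M21, and promoter windows (37 members matched) from RefSeq, GRCm38.p6.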

Additional observations from a re-analysis of the deposited data

Results flagged for a closer look

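Some members had a clone effect that differed between gels and plastic by the interaction term of edgeR's quasi-likelihood test. In clone 1, 1 member had a positive and 5 a negative interaction, against 3.57% and 3.44% of all genes. Ifitm3 was at 0.69 ± 0.16 (adjusted p = 0.00930), Ddx60 at -1.45 ± 0.36 (adjusted p = 0.0120) and Oasl1 at -0.87 ± 0.27 (adjusted p = 0.0475). All 3 were lost under at least 1 alternative: Ifitm3 without control replicate 1 in 3D (adjusted p = 0.0644), Ddx60 without clone 1 replicate 1 in 2D (adjusted p = 0.237), and Oasl1 with DESeq2's Wald test (adjusted p = 0.0592), with a replicate block (adjusted p = 0.0611) and without any 1 of 9 libraries. In clone 2, 18 members had a positive interaction, against 7.43% of all genes. Any call of Ifit3b, Rsad2 or Cmpk2 among them carries no weight, since these passed the filter only through clone 2 in gels. Oasl2 was at 2.26 ± 0.37 (adjusted p = 7.44e-05) and Oasl1 at 1.37 ± 0.29 (adjusted p = 0.00131). Both clones are set against the same control libraries, and format cannot be told apart from digestion and table. With 2 libraries a group, no library was tested for standing apart.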

How the results depend on the processing

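Of 1080 alternative values of the members named by size, 1036 kept direction and side of the threshold, 42 kept direction and were no longer past it, and 2 reversed. Those 2 were Eif2ak2 in clone 2 against clone 1 with chromosomes centred, at 0.12 in 2D and 0.17 in 3D. With chromosomes centred, 7 members were higher in clone 2 than control in 2D, 0 higher in clone 1 and 0 lower in clone 2 than control in 3D, 0 lower in clone 2 than clone 1 in 3D, and 1 had a negative interaction in clone 2. The 2D libraries alone gave 2 higher and 8 lower in clone 2 against control. DESeq2's Wald test gave 3 negative interactions in clone 1, and 20 members higher in clone 2 than control in 3D.

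Leaving out 1 library at a time, members higher in clone 2 than control in 3D numbered 16 to 31 and lower 1, against 2 to 6 and 7 to 13 in 2D. For clone 1 against control they numbered 0 to 1 and 21 to 30 in 3D, and 2 to 4 and 14 to 19 in 2D. For clone 2 against clone 1 the ranges were 34 to 37 and 0 to 1 in 3D, and 16 to 19 and 3 to 6 in 2D. For 3D against 2D they were 31 to 37 and 2 to 3 in clone 2, 16 to 20 and 3 to 6 in clone 1, and 26 to 28 and 4 to 5 in control. Positive interactions numbered 12 to 18 in clone 2 and 0 to 1 in clone 1, where negative ones numbered 2 to 6. Where a group kept 1 library, that library is assumed to vary like the other groups. The range fell to its low end for members higher in clone 1 in 3D without control replicate 2 or clone 1 replicate 1 in 3D, and for its positive interaction without control replicate 1 in 3D.

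Replicate numbers did not pair the samples, with correlations of -0.0449 to 0.0223. With a replicate block 28 members were higher in clone 2 and 27 lower in clone 1 than control in 3D, and of the members named by size only Oasl1's interaction in clone 1 was lost (-0.87, adjusted p = 0.0611). Over all genes the positive share of interaction calls in clone 1 was 50.9%, and 60.4% with DESeq2 size factors, 65.2% without Gm26917 and Gm42418 and 60.6% with centring. In clone 2 it was 33.4% and 43.8% without those transcripts, and the higher share in clone 1 in 3D was 48.9% and 60.5% with centring. No scaling moved the median of all genes by over 0.1. Depth limits the members at a few counts, and Oas2 and Ifit3 were not tested.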
